A study of Homo sapiens with 4 samples.

Results

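Small nucleolar RNAs (snoRNAs) were examined in TE5 cells, a human oesophageal squamous cell carcinoma line, with and without added ETS1. The members were the gene names that start with SNORA or SNORD and a digit and that had a mean of at least 1 FPKM (fragments per kilobase, adjusted for library depth) over the 4 libraries. Of 55764 gene names, 387 were of this kind, 112 SNORA and 275 SNORD, and 215 of them were listed at 0 in every library. The limit left 52 detected snoRNAs, of which 19 were SNORA (H/ACA) and 33 were SNORD (C/D). The members were thus chosen by their mean FPKM over both groups, so levels are a description here. A snoRNA can also pass it through one group alone: 6 had a control mean under 1 FPKM, and 0 had an ETS1 mean under 1 FPKM. Just inside the limit were SNORA11 with a mean of 1.00, SNORD1B with 1.07 and SNORD73 with 1.10 FPKM, and just outside it were SNORD12C with 0.998, SNORD53_SNORD92 with 0.930 and SNORA47 with 0.928 FPKM.

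Most human snoRNAs lie in introns of other genes and are trimmed out of the spliced intron. C/D snoRNAs carry boxes C and D and guide 2′-O-methylation of ribosomal RNA with the methyltransferase fibrillarin. H/ACA snoRNAs carry an ACA box near their 3′ end and guide pseudouridylation with the pseudouridine synthase dyskerin. A few, such as the U3, U14 and U17 RNAs, are instead needed for cleavage or folding of the ribosomal RNA precursor.

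RNA was sequenced in bulk from 2 libraries of cells that stably carried a lentiviral vector with human ETS1, a transcription factor, under a CMV promoter, and from 2 libraries of cells that carried the empty backbone. Both groups were thus infected and selected TE5 cells grown in the same serum-containing medium, and the labels do not say whether a group is 1 infection or several, or a clone. The libraries of a group are numbered 1 and 2 in the labels, which do not say that they came from separate cultures, so the p-values measure the spread between these libraries, which may be technical.

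ETS1 itself had 0.491 and 0.509 FPKM in the controls (142 and 161 reads) and 1.84 and 1.87 FPKM with the ETS1 vector (756 reads in each library). Its log2(FPKM + 1) difference was 0.93 (SE 0.0617, limma adjusted p = 0.000704), which a fit on reads gave as 1.89. Total reads recovered from the FPKM values were 40505238 and 44281805 in the controls and 57505840 and 56737036 in the ETS1 libraries, a ratio of group means of 1.35. Of 5 squamous markers, the 2 control libraries list KRT5, KRT14, KRT6A and TP63 at 0, and none of these exceeded 0.0165 FPKM in the ETS1 libraries. The other, SFN, had 0.451 and 0.584 FPKM in the controls and 1.24 and 1.07 FPKM in the ETS1 libraries, a mean too low to be tested. The summed FPKM of KRT8, KRT18, EPCAM and CDH1, markers of simple epithelium, was 16.1 and 16.3 in the controls and 16.8 and 16.9 in the ETS1 libraries. Its members moved in opposite directions: KRT8 rose (FPKM ratio 1.68, limma adjusted p = 0.000591), KRT18 fell (0.801, limma adjusted p = 0.00223), EPCAM had a ratio of 0.748 without passing, and CDH1, too low to be tested, a ratio of 1.75. The summed FPKM of the immune markers PTPRC, CD3E and CD68 was at most 0.0926 in any library. That of the stromal markers COL1A1, COL3A1 and DCN was 2.24 and 2.09 in the controls and 2.88 and 3.00 in the ETS1 libraries, nearly all of it COL1A1. In bulk RNA, fewer cells of a type and less RNA per cell cannot be told apart.

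The sequences of 7 snoRNAs on which the results turn are printed here from GENCODE 29 on GRCh38, 5′ to 3′. Capitals mark the first NTGATGA (box C) and the last CTGA (box D) in a C/D snoRNA, and the last ACA within the final 10 bases of an H/ACA snoRNA. SNORD104 and SNORA76 are shown because they lie 186 bases apart in the same host and both fell, SNORD14A and SNORD99 because they were among the most abundant, SNORD3D because it is one of several near copies of U3, and SNORA71A and SNORA71C because they share a host and most of their sequence but had differences of opposite sign. SNORA76 is listed in RefSeq as an older name of SNORA50C, and its sequence is that of SNORA50C.
SNORD104, chr17:64146083-64146152, plus strand: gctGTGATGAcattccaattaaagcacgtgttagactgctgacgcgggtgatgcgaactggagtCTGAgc
SNORA76 (SNORA50C), chr17:64146339-64146471, plus strand: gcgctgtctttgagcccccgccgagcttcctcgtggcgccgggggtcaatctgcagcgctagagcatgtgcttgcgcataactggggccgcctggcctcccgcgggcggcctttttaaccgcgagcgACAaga
SNORD14A, chr11:17074654-17074744, minus strand: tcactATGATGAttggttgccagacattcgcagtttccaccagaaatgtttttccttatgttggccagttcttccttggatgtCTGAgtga
SNORD99, chr1:28578749-28578822, minus strand: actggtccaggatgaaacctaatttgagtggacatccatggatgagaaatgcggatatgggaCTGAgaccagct
SNORD3D, chr17:19112419-19112636, minus strand: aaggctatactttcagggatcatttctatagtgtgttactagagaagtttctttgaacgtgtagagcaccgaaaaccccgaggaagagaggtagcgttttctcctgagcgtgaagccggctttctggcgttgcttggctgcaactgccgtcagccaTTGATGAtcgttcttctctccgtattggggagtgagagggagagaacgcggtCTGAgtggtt
SNORA71A, chr20:38427309-38427442, minus strand: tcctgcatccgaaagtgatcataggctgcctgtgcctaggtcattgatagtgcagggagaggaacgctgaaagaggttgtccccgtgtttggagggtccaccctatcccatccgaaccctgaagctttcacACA
SNORA71C, chr20:38429670-38429803, minus strand: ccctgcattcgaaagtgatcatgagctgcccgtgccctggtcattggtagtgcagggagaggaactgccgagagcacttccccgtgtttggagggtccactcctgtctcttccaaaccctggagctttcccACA

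Of the C/D snoRNAs, 28 had a GENCODE 29 sequence, and 23 of these (82.1%) held NTGATGA followed by CTGA, against 220 of the 288 SNORD transcripts in GENCODE 29 (76.4%) and 0 of the 149 SNORA transcripts. All 18 H/ACA snoRNAs with a sequence held ACA within their final 10 bases, against 134 of 149 SNORA transcripts (89.9%) and 14 of 288 SNORD transcripts (4.86%). The search ran on the strand of the RNA only, and the boxes do not overlap in the sequences printed. In SNORD99 these letters found box D but not box C.

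By GENCODE 29, 40 of the 52 lie in an intron of a gene on the same strand and 4 in an exon, or partly in an exon, of a transcript of such a gene. These 4 are SNORA76, SNORD12, SNORD3D and, in part, SNORD63. For 3 more, placed by RefSeq without a strand, an intron of a named gene holds them. SNORD3A and SNORD3C had no host, and SNORA2, SNORD18 and SNORD73 matched no name in either annotation. Reads of a mature snoRNA and of the unspliced host intron fall on the same bases, and their shares were not tested. For the 4 in an exon, reads of a spliced host transcript fall there too.

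The snoRNAs rested on few reads. Over the 4 libraries together a snoRNA had a median of 72.1 reads, from 16 to 1121, against a median of 5922 for all tested genes. Reads came out whole for 39 of the 52. For the other 13, among them SNORA76, SNORD18 and SNORA2, no single gene length fitted the values, so their reads are estimates. The plot of each snoRNA's FPKM by library shows how low most stood: 35 had a mean under 5 FPKM, and 8 had a mean of at least 10 FPKM. These are levels in the libraries. How well RNAs this short were captured was not tested, so they are not levels in the cell.

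**Figure D1:**
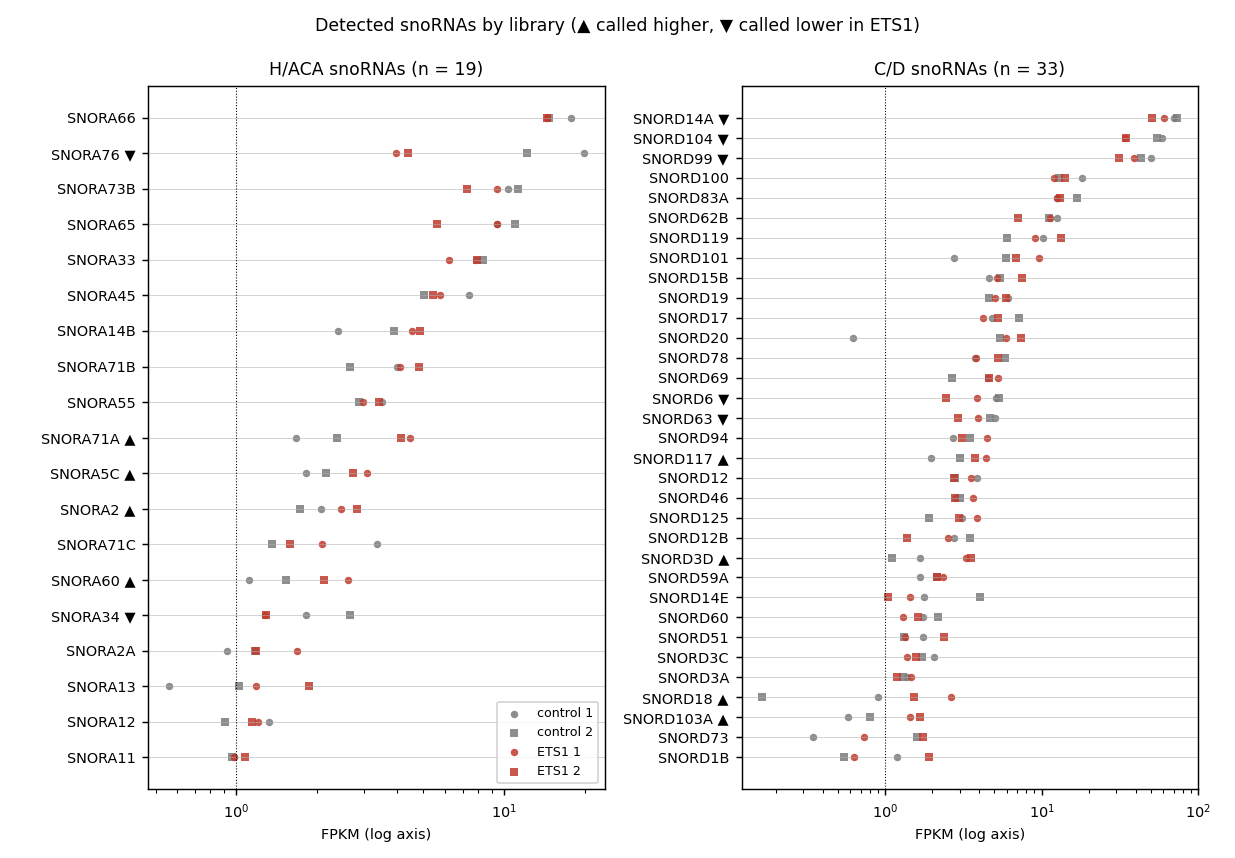
FPKM of each of the 52 detected snoRNAs in the 4 libraries, on a log axis, H/ACA on the left and C/D on the right, ordered by mean. Circles are libraries 1 and squares libraries 2, grey for control and red for ETS1; the dotted line is 1 FPKM, and triangles mark the 8 snoRNAs that passed the test upward and the 7 that passed it downward.

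Differences between ETS1 and control were tested with limma on log2(FPKM + 1) over all 14306 genes with a mean of at least 1 FPKM, and a snoRNA passed at an adjusted p under 0.05. Of the 52 snoRNAs, 15 (28.8%) passed, 8 higher and 7 lower in the ETS1 libraries. Over all tested genes 59.1% passed, 30.7% higher and 28.4% lower, so the share among snoRNAs was below the background. Among the genes with under 200 reads over the 4 libraries, 252 of 778 (32.4%) passed, and of the 41 snoRNAs with so few reads 10 (24.4%) passed. At an unadjusted p under 0.05 there were 19 snoRNAs. Of the 46 snoRNAs with both group means at 1 FPKM or more, 6 passed upward and 7 downward.

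The differences of the snoRNAs had a larger median size and a wider error than those of all genes. The median absolute difference was 0.342 on the log2(FPKM + 1) scale, with a median SE of 0.153, against 0.198 with a median SE of 0.0465 over all tested genes. ETS1 and control values did not overlap for 30 of the 52 (57.7%), 17 higher and 13 lower, where 82% of all tested genes did not overlap, 43.1% higher and 38.9% lower. The 17 include snoRNAs that reached the detection limit only through the ETS1 libraries. Without such snoRNAs, 7 H/ACA and 6 C/D snoRNAs were higher, and 4 H/ACA and 9 C/D snoRNAs lower. The limma SE was smaller than the SE expected from counting reads alone for 41 of the 52 snoRNAs and for 11 of the 15 that passed. A fit of voom on the recovered reads, which carries the counting error, passed 8 snoRNAs (4 higher, 4 lower; 63.6% of all genes), and limma with its prior variance following the read number passed 8 (3 higher, 5 lower; 62.9% of all genes). With no filter on low values 5 of the 15 passed (19.6% of all genes), namely SNORA71A, SNORA76, SNORD3D, SNORD103A and SNORD104. The 6 snoRNAs that passed limma, voom and the fit with that prior were SNORA71A and SNORD3D, which rose, and SNORA76, SNORD104, SNORD14A and SNORD99, which fell. In the authors' deposited table an adjusted p is given for 20 of the 52, and 4 of these are under 0.05, namely SNORA76, SNORD104, SNORD14A and SNORD3D (54.2% of 14023 genes there).

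**Figure D2:**
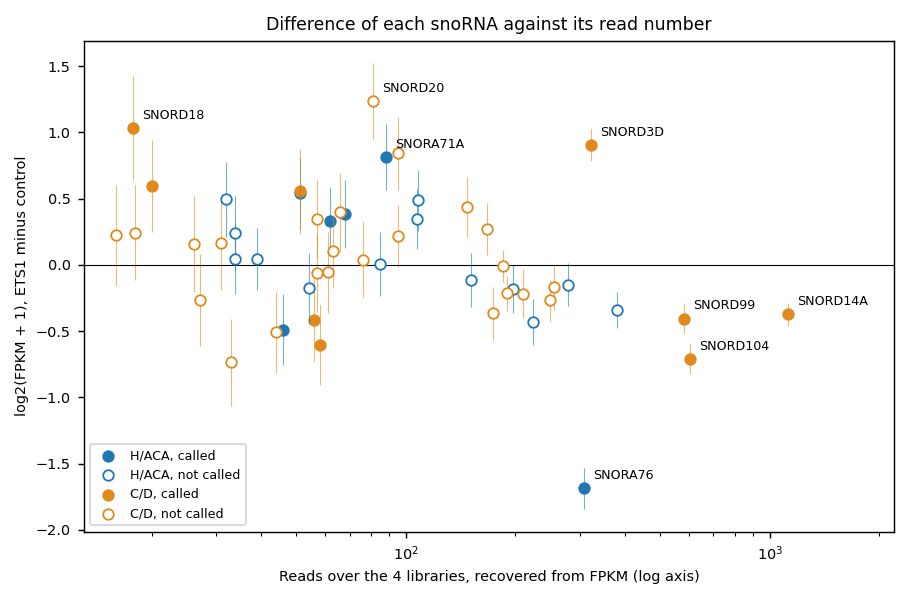
Difference in log2(FPKM + 1), ETS1 minus control, of each of the 52 snoRNAs against its reads over the 4 libraries (log axis); vertical lines are 1 SE from counting reads alone. Filled points passed the limma test; the 4 filled points furthest right below the zero line are SNORA76, SNORD99, SNORD104 and SNORD14A, and SNORD3D is the filled point furthest right above it.

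The sign of the difference went with the read number. Of the 20 snoRNAs with at least 100 reads, 15 had a difference below 0, with 1 passing upward and 4 downward and a median of −0.20. Of the 32 with under 100 reads, 23 had a difference above 0, with 7 passing upward and 3 downward and a median of 0.19. The detection limit set part of the latter split: the 6 snoRNAs that reached it only through the ETS1 libraries all had under 100 reads and a difference above 0. Of the 26 others with under 100 reads, 17 had a difference above 0, with 5 passing upward and 3 downward and a median of 0.13. Over all tested genes 52.3% had a difference above 0, 30.7% passed upward and 28.4% downward, and the median was 0.016. The plot of difference against reads shows both sides, and the part that depth had in this was not tested.

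The 2 classes had nearly equal medians with all 4 libraries. Of the 19 H/ACA snoRNAs 6 (31.6%) passed, 4 higher and 2 lower, with a median difference of 0.042. Of the 33 C/D snoRNAs 9 (27.3%) passed, 4 higher and 5 lower, with a median of 0.038. Both shares were below the 59.1% of all tested genes that passed. Values of the groups did not overlap for 9 H/ACA snoRNAs higher and 4 lower, and for 8 C/D snoRNAs higher and 9 lower, against 43.1% of all tested genes higher and 38.9% lower. Among all members, overlapping or not, 2 H/ACA and 4 C/D snoRNAs reached the detection limit only through the ETS1 libraries. SNORA11 is among them, and its value is the H/ACA median. The 17 other H/ACA snoRNAs had 4 higher, 2 lower and a median of 0.0090, and the 29 other C/D snoRNAs had 2 higher, 5 lower and a median of −0.057. Among these others the groups did not overlap for 7 H/ACA snoRNAs higher and 4 lower, and for 6 C/D snoRNAs higher and 9 lower. The H/ACA median exceeded the C/D median by 0.0041. A related quantity, the class difference within a library in the median of log2(FPKM + 1) against each snoRNA's own mean, was 0.0209 and −0.0848 in the controls and 0.0856 and 0.0486 in the ETS1 libraries. These values did not overlap between the groups, and their SD between replicates was 0.0560. They include the 6 snoRNAs that reached the detection limit only through the ETS1 libraries. The values were not computed without those, so no class result is drawn from the separation. The difference of the 2 medians depended on single libraries: it was 0.10 without control library 1, −0.12 without control library 2, 0.066 without ETS1 library 1 and 0.076 without ETS1 library 2. The sign of each class median also depended on the processing. With a mean FPKM of at least 5 the medians were −0.26 for H/ACA and −0.22 for C/D, and under quantile normalization −0.011 and −0.021. The H/ACA median was −0.097 without control library 2, and the C/D median −0.067 without ETS1 library 2. The number of H/ACA snoRNAs that passed went from 6 to 10 without control library 2. No test of the class difference was made, since the members were chosen with results known.

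A few members held most of the change in the summed levels. The H/ACA snoRNAs summed to 98.0 and 87.9 FPKM in the controls and 81.9 and 78.1 FPKM in the ETS1 libraries, so the groups did not overlap. Without SNORA76 alone, a choice made after its values were seen, the sums were 78.2 and 75.7 against 78.0 and 73.7 FPKM, which overlap. The C/D snoRNAs summed to 302 and 301 FPKM in the controls and 266 and 250 FPKM in the ETS1 libraries. SNORD14A, SNORD104 and SNORD99 held 59.3% and 57.2% of this sum in the controls and 50.3% and 46.7% in the ETS1 libraries. The other 30 C/D snoRNAs summed to 123 and 129 FPKM in the controls and to 132 and 133 FPKM in the ETS1 libraries, again chosen after the values were seen.

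Both detected snoRNAs of SNHG25 fell, with the largest differences on the log2(FPKM + 1) scale among those that passed downward. By FPKM ratio SNORA76 fell furthest too, but SNORA34 (0.576) and SNORD6 (0.603) stood just below SNORD104. SNORA76, an H/ACA snoRNA, had 19.9 and 12.2 FPKM in the controls and 3.94 and 4.38 FPKM in the ETS1 libraries. Both ETS1 values were under both controls, although the controls differed between themselves (16.0 ± 5.40 against 4.16 ± 0.313 FPKM, SD, n = 2 each). The FPKM ratio was 0.259 and the log2(FPKM + 1) difference −1.69 (SE 0.217, limma adjusted p = 0.00309). The length behind its FPKM was not 1 fixed number of bases, so the name may cover more than the 1 locus printed, and its level is uncertain. SNORD104, a C/D snoRNA 186 bases upstream on the same strand, had 59.0 and 55.0 FPKM in the controls and 34.3 and 34.7 FPKM in the ETS1 libraries. These rest on 165 and 168 reads in the controls and 136 reads in each ETS1 library. Its groups stood far apart, at a ratio of 0.605 and a difference of −0.71 (SE 0.0413, limma adjusted p = 0.000595). The SE from counting alone was 0.115, so the limma error understates the uncertainty, and voom gave −0.72 (SE 0.135, adjusted p = 0.000864). In the authors' deposited table the log2 fold changes are −1.86 for SNORA76 and −0.63 for SNORD104. The host SNHG25 has no row of that name in the table, so its own level is not analysed here. SNORA76 lies in an exon of an SNHG25 transcript, so reads of the spliced host also fall on it. How much of its fall belongs to the host RNA cannot be told apart here.

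SNORD14A and SNORD99, also C/D snoRNAs, fell by less. SNORD14A, a copy of U14 in an intron of the ribosomal protein gene RPS13, was the most abundant snoRNA, at 70.2 and 73.8 FPKM in the controls and 60.5 and 50.5 FPKM in the ETS1 libraries. Both ETS1 values lay under both controls, with a ratio of 0.771 and a difference of −0.37 (SE 0.0883, limma adjusted p = 0.0190). Without control library 2 the adjusted p was 0.0615, and quantile normalization gave −0.22 with an adjusted p of 0.101, and with no filter it was 0.0955. Without ETS1 library 2 it passed at −0.25. SNORD14E, a second copy of U14, in HSPA8, matches 83.5% of its own bases to SNORD14A and had 1.76 and 4.03 FPKM against 1.45 and 1.05 FPKM. It stood lower in both ETS1 libraries but did not pass (−0.74, limma adjusted p = 0.0857), with −1.17 without control library 1 (adjusted p = 0.00422) and −0.30 without control library 2 (0.118). SNORD99, in an intron of SNHG12, had 50.1 and 43.3 FPKM against 38.8 and 31.4 FPKM, a ratio of 0.752 and a difference of −0.41 (SE 0.119, limma adjusted p = 0.0365). That call was lost without control library 1 (adjusted p = 0.112) or ETS1 library 2 (−0.26, adjusted p = 0.0880), under quantile normalization (0.0842), with no filter (0.148), with a prior without a trend (0.0508) and in the authors' deposited table, which has an adjusted p of 0.117.

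Of the other snoRNAs among the 5 most abundant of each class, and of the U17 RNA, none passed. SNORA66, in RPL5, had 17.7 and 14.7 FPKM in the controls and 14.5 in both ETS1 libraries (−0.15, limma adjusted p = 0.188). SNORA73B, a copy of U17 in RCC1, had 10.3 and 11.2 FPKM against 9.42 and 7.29 FPKM and missed the threshold (−0.34, limma adjusted p = 0.0551), although ETS1 values were under both controls. Without ETS1 library 1 it was −0.51 (adjusted p = 0.00834) and without ETS1 library 2 −0.18 (0.0994). With the prior following the read number the limma adjusted p of SNORA73B was 0.0466. It was 0.0484 with trimmed-mean scaling and 0.0369 with a filter at a mean FPKM of 5. With voom the adjusted p was 0.0961, and the authors' deposited table gives 0.262. SNORA65, in RPL12, had 9.38 and 11.0 FPKM against 9.44 and 5.60 FPKM, so the groups overlapped (−0.43, limma adjusted p = 0.160). It was −0.76 without ETS1 library 1 (adjusted p = 0.00814) and −0.098 without ETS1 library 2 (0.465). SNORA66 was −0.28 without control library 2 (adjusted p = 0.00612) and −0.025 without control library 1 (0.588). SNORD100 and SNORD83A, in RPS12 and RPL3, had 18.1 and 12.9 against 12.1 and 14.1 FPKM, and 12.6 and 16.8 against 12.6 and 13.1 FPKM. Both overlapped between groups, and the sign of each turned when 1 control library was left out: SNORD100 went from −0.22 to 0.0097 without control library 1, and SNORD83A from −0.17 to 0.026 without control library 2. With the other control left out each passed downward, SNORD100 at −0.44 (adjusted p = 0.0207) and SNORD83A at −0.36 (adjusted p = 0.00495).

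Among the near copies of U3, the C/D snoRNA of early precursor cleavage, SNORD3D rose and the others did not pass. SNORD3D had 1.67 and 1.10 FPKM in the controls and 3.31 and 3.55 FPKM in the ETS1 libraries, with 43, 31, 121 and 128 reads in that order. The ETS1 values were both more than the higher control, with a ratio of 2.48 and a difference of 0.90 (SE 0.123, limma adjusted p = 0.00363). SNORD3A had 1.38 and 1.29 FPKM against 1.47 and 1.19 FPKM (−0.01, limma adjusted p = 0.943), and SNORD3C had 2.04 and 1.71 FPKM against 1.38 and 1.58 FPKM (−0.21, limma adjusted p = 0.0810, with −0.30 and 0.0456 without control library 2, and −0.13 and 0.264 without control library 1). SNORD3A overlapped between groups and SNORD3C was lower in both ETS1 libraries. In 2 of 13 alternative fits SNORD3C passed downward, the fit without control library 2 among them. Of the 218 bases of SNORD3D, 98.6% matched SNORD3A in an alignment, and of the 217 of SNORD3C 98.2% matched SNORD3D, so how the counting split reads between the copies is uncertain. The FPKM of all 3 copies rests on windows longer than the 218 bases printed for SNORD3D: 636 bases for SNORD3D itself, 698 for SNORD3A and 580 for SNORD3C.

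SNHG17 holds 3 related H/ACA snoRNAs in its introns, of which SNORA71A passed. SNORA71A had 1.67 and 2.38 FPKM in the controls and 4.45 and 4.11 FPKM in the ETS1 libraries, with 9, 14, 34 and 31 reads in that order. It rose, with both ETS1 values over both controls, a ratio of 2.11 and a difference of 0.81 (SE 0.12, limma adjusted p = 0.00458). Its SE from counting alone was 0.248, and voom gave 1.05 (SE 0.321, adjusted p = 0.0147). SNORA71B had 3.99 and 2.66 FPKM against 4.09 and 4.80 FPKM and did not pass (0.35, limma adjusted p = 0.123). SNORA71C had 3.34 and 1.36 FPKM against 2.09 and 1.59 FPKM and overlapped between groups (−0.18, limma adjusted p = 0.634), its second control lying under both ETS1 values. SNORA71A matched 84.3% of its 134 bases to SNORA71C and 84.3% to SNORA71B. The differences between these 3 were not tested against each other. SNHG17 itself fell, from 22.0 and 21.7 FPKM to 15.8 and 15.9 FPKM (−0.44, limma adjusted p = 0.000666).

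The other H/ACA snoRNAs that passed had between 46 and 68 reads over the 4 libraries. SNORA60, in an intron of SNHG11, had 1.11 and 1.53 FPKM against 2.61 and 2.12 FPKM and rose (0.54, SE 0.119, limma adjusted p = 0.0155). SNORA5C, in TBRG4, had 1.82 and 2.16 FPKM against 3.07 and 2.72 FPKM and rose (0.38, SE 0.0815, limma adjusted p = 0.0137). SNORA2, a name that matched no annotated locus, had 2.08 and 1.73 FPKM against 2.45 and 2.84 FPKM (0.33, SE 0.0872, limma adjusted p = 0.0273). SNORA34, in KANSL2, was the second H/ACA snoRNA that fell, from 1.82 and 2.66 FPKM to 1.28 and 1.30 FPKM (−0.49, SE 0.132, limma adjusted p = 0.0287). None of these 4 passed with voom, at adjusted p of 0.0865, 0.192, 0.266 and 0.0964 in this order. With the replicate number as a block SNORA2 did not pass (limma adjusted p = 0.0561), while SNORA60, SNORA5C and SNORA34 did. Leaving out ETS1 library 1 ended the calls of SNORA60 (adjusted p = 0.0579), SNORA5C (0.0602) and SNORA34 (0.0808), leaving out ETS1 library 2 those of SNORA34 (0.0795) and SNORA2 (0.114), and leaving out control library 2 that of SNORA2 (0.0789). SNORA34 passed at −0.30 without control library 2.

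Of the C/D snoRNAs with fewer reads, 3 rose. SNORD18, a name that matched no annotated locus, had 0.894 and 0.164 FPKM in the controls and 2.65 and 1.53 FPKM in the ETS1 libraries (1.03, SE 0.289, limma adjusted p = 0.0316). Its estimated reads were 2.27, 0.455, 9.55 and 5.46 in that order. SNORD103A had 0.581 and 0.797 FPKM against 1.43 and 1.66 FPKM (0.59, SE 0.0948, limma adjusted p = 0.00570), with 2, 3, 7 and 8 reads in that order. Both reached the limit of 1 FPKM only through the ETS1 libraries, so their direction follows from the choice of members. SNORD117, in DDX39B, had 1.98 and 3.01 FPKM against 4.41 and 3.76 FPKM (0.55, SE 0.156, limma adjusted p = 0.0324), with 6, 10, 19 and 16 reads in that order. With voom SNORD103A and SNORD117 did not pass, at adjusted p of 0.0878 and 0.136, and SNORD18 did, at 0.0216. With the prior following the read number none of the 3 passed, at adjusted p of 0.0671 for SNORD18, 0.190 for SNORD103A and 0.101 for SNORD117. With the replicate number as a block SNORD117 did not pass (limma adjusted p = 0.0513), while SNORD18 and SNORD103A did. SNORD18 no longer passed without control library 2 (0.68, adjusted p = 0.0677) or ETS1 library 1 (0.101), or with a pseudocount of 0.1 (0.0504), and SNORD117 no longer passed without ETS1 library 1 (0.108) or ETS1 library 2 (0.0513). SNORD117 passed at 0.34 without control library 1.

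SNORD6, in TAF1D, and SNORD63, in HSPA9, fell. SNORD6 had 5.14 and 5.33 FPKM in the controls and 3.86 and 2.45 FPKM in the ETS1 libraries (−0.61, SE 0.165, limma adjusted p = 0.0290), with 15, 17, 16 and 10 reads in that order. SNORD63 had 5.06 and 4.71 FPKM against 3.94 and 2.92 FPKM (−0.42, SE 0.117, limma adjusted p = 0.0318). The SE from counting alone was 0.303 and 0.310, larger than both limma errors, and neither passed with voom, at adjusted p of 0.0868 and 0.210, or with the prior following the read number, at 0.0686 and 0.169. Leaving out a control library ended both calls, with adjusted p of 0.0666 and 0.0807 for SNORD6 and of 0.0958 and 0.0595 for SNORD63, without control library 1 and 2 respectively. Without ETS1 library 2 the difference of SNORD6 was −0.36 and that of SNORD63 −0.25, and both still passed.

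The remaining snoRNAs did not pass. In all, 37 of the 52 did not, 20 with a difference above 0 and 17 below, from −0.74 for SNORD14E to 1.24 for SNORD20. The ETS1 values of these 37 were above both controls for 9, below both for 6, and overlapped them for 22. Over all tested genes, passing or not, 43.1% were above both controls and 38.9% below both. The 9 include SNORA11 and SNORA13, which reached the detection limit only through the ETS1 libraries. SNORD20, in NCL, was named after its values were seen: it had 0.625 and 5.43 FPKM in the controls and 5.94 and 7.36 FPKM in the ETS1 libraries, with 2, 19, 27 and 33 reads in that order. The controls lay far apart (SE 0.645, limma adjusted p = 0.158), and voom called it at an adjusted p of 0.0401, but the fit with the prior following the read number did not (0.0670). SNORD101, also named afterwards, had 2.74 and 5.96 FPKM against 9.66 and 6.85 FPKM (0.84, limma adjusted p = 0.0763), and passed with the prior following the read number, at 0.0373, but not with voom, at 0.0501. SNORA14B, in TOMM20, and SNORA13, in EPB41L4A-AS1, were higher in both ETS1 libraries without passing (0.49, limma adjusted p = 0.0639, and 0.49, limma adjusted p = 0.0722). SNORA13 reached the detection limit only through the ETS1 libraries, so its direction follows from the choice of members. Of the 3 nearest the limit, SNORA11 had 0.981 and 0.964 FPKM against 0.985 and 1.08 FPKM, SNORD1B had 1.19 and 0.544 FPKM against 0.629 and 1.91 FPKM, and SNORD73 had 0.348 and 1.59 FPKM against 0.735 and 1.74 FPKM.

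The other snoRNAs that did not pass are given for completeness. Higher in both ETS1 libraries was SNORD59A, in ATP5B (1.67 and 2.14 against 2.35 and 2.14 FPKM, 0.17), and lower in both was SNORD60, in SNHG19 (1.76 and 2.17 against 1.31 and 1.62 FPKM, −0.26, limma adjusted p = 0.0780). In the rest the groups overlapped. Above 0 stood SNORD119 (10.2 and 6.02 against 9.04 and 13.4 FPKM, 0.44), SNORD125 (0.34), SNORD15B (0.27), SNORD94 (0.21), SNORD51 (0.16), SNORD46 (0.10), SNORA12 (0.05) and SNORA55 (0.01). Below 0 stood SNORD62B (12.5 and 11.2 against 11.3 and 7.05 FPKM, −0.37), SNORD17 (−0.27), SNORA45 (−0.11) and SNORD78 (−0.06), the last in an intron of GAS5, which fell (−0.56, limma adjusted p = 0.00109). None of the SNORD113 to SNORD116 names, which lie in imprinted clusters, reached the limit of 1 FPKM.

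Of the 6 hosts that hold at least 2 detected snoRNAs, 3 had differences of both signs, as the plot by host shows. These were SNHG17, KANSL2 and RPS12, while both differences were below 0 in SNHG25 and ZFAS1 and above 0 in GNL3. KANSL2 holds SNORA34, which fell, and SNORA2A, with 0.921 and 1.18 FPKM against 1.69 and 1.18 FPKM (0.24, limma adjusted p = 0.158). Their sequences matched over 75.6% of SNORA2A. RPS12 holds SNORD101 at 0.84, SNORD100 at −0.22 and SNORA33 at −0.18 on the log2(FPKM + 1) scale, of which none passed. SNORA33 had 7.84 and 8.37 FPKM in the controls and 6.25 and 7.91 FPKM in the ETS1 libraries, and stood at −0.33 without ETS1 library 2 (adjusted p = 0.0196) and at −0.031 without ETS1 library 1 (0.714). In ZFAS1, SNORD12 stood at −0.06 and SNORD12B at −0.51 (limma adjusted p = 0.0884), and in GNL3, SNORD19 stood at 0.04 and SNORD69 at 0.40 (limma adjusted p = 0.148). All 5 hosts of these groups with a row in the table fell, with ZFAS1 at −0.82, GNL3 at −0.48, SNHG17 at −0.44, RPS12 at −0.43 and KANSL2 at −0.21. These groups were chosen for their shared hosts after the values were seen.

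**Figure D3:**
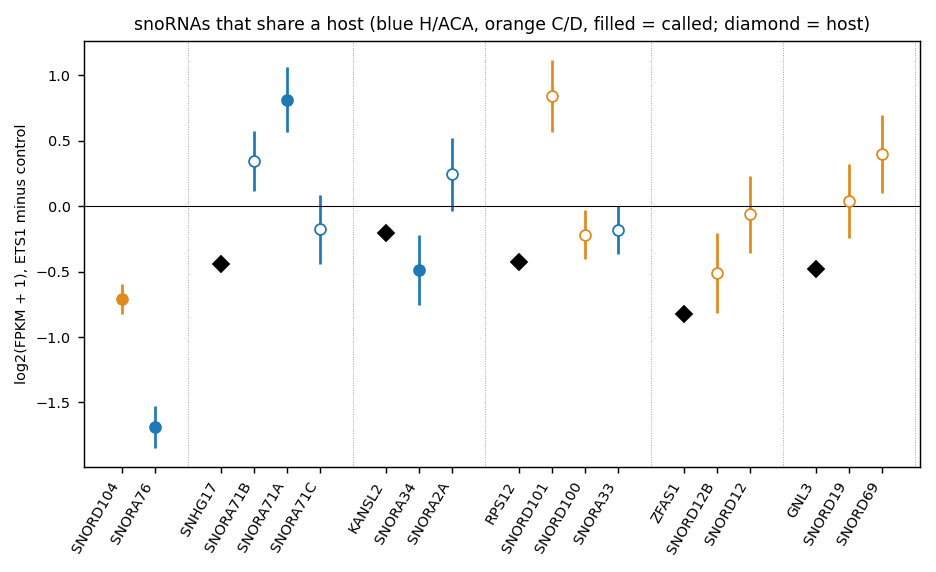
Difference in log2(FPKM + 1), ETS1 minus control, of the snoRNAs that share a host (circles, blue H/ACA and orange C/D, filled where limma passed) and of the host (black diamonds). Lines are 1 SE, from counting reads for snoRNAs and from limma for hosts; SNORD104 and SNORA76, first on the left, share SNHG25, which has no diamond because it has no row in the table.

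Tested hosts were 35 genes, which hold 42 of the snoRNAs. Hosts that passed were 3 higher and 25 lower, with a median difference of −0.22, where 59.1% of all genes passed. The 7 tested non-coding hosts all fell (median −0.44), as did 6 of 8 ribosomal protein genes (median −0.18) and 12 of 20 other protein-coding genes, of which 3 rose. Of the 13 tested SNHG genes, a naming group of snoRNA hosts, 11 fell, with a median of −0.59. Of these genes 4 host detected snoRNAs and are counted above; of the 9 others 7 fell, with a median of −0.67 and the largest difference for SNHG7 (67.1 and 67.3 FPKM against 29.7 and 29.7 FPKM, −1.15, limma adjusted p = 0.000254).

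SnoRNAs and their hosts had differences of the same sign in 22 of 42 pairs. Across these pairs the differences had a Spearman rho of 0.219 and a Pearson r of 0.322, a description across members that share libraries, hosts and, in part, reads. Of the 9 snoRNAs that passed and whose host was examined, 6 had a host that passed in the same direction and 3 in the opposite one. SNORD117 and DDX39B (0.32, limma adjusted p = 0.00123) rose together, and SNORD14A and RPS13, SNORD99 and SNHG12, SNORD6 and TAF1D, SNORD63 and HSPA9, and SNORA34 and KANSL2 fell together. SNORD63 lies partly in an exon of HSPA9, so reads of the HSPA9 mRNA can fall on it, and its reads are estimates. SNORA71A, SNORA60 and SNORA5C rose while SNHG17, SNHG11 and TBRG4 fell. By host type, 1 of 10 snoRNAs in ribosomal protein genes passed, SNORD14A, while 2 rose and 3 fell of 22 in other protein-coding genes and 3 rose and 3 fell of 14 in non-coding hosts. Over all tested genes 59.1% passed, and 32.4% of those with under 200 reads, and the host types were not tested against each other. The median level was 84.0 FPKM over the tested hosts against 3.26 FPKM over all 52 snoRNAs. SNORD99, at a mean of 40.9 FPKM, stood above its host SNHG12, at 22.4 FPKM.

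**Figure D4:**
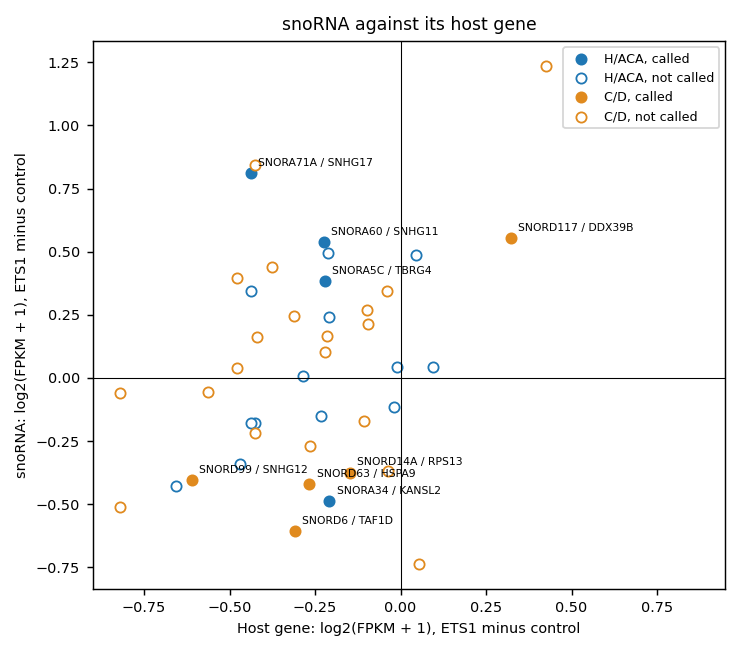
Difference in log2(FPKM + 1), ETS1 minus control, of each of 42 snoRNAs (vertical) against that of its host gene (horizontal), H/ACA in blue and C/D in orange, filled where the snoRNA passed the limma test. The 9 named pairs are snoRNAs that passed; most hosts lie left of zero, whereas the snoRNAs lie on both sides of the horizontal line.

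The mRNAs of the proteins that bind mature snoRNAs fell throughout both core sets. All 4 H/ACA core genes passed downward: NOP10 went from 312 and 323 FPKM to 156 and 153 FPKM (−1.03, SE 0.0304), DKC1, which encodes dyskerin, from 61.9 and 61.8 to 48.2 and 47.3 FPKM (−0.37, SE 0.0260), and GAR1 and NHP2 stood at −0.31 and −0.23. All 4 C/D core genes did too: FBL, which encodes fibrillarin, went from 191 and 189 to 132 and 132 FPKM (−0.52, SE 0.0248), NOP58 from 73.1 and 75.8 to 51.3 and 51.9 FPKM (−0.52, SE 0.0301), and NHP2L1, whose product binds the C/D fold, and NOP56 stood at −0.51 and −0.10. In each of these 8 genes both ETS1 values lay under both controls, as in 38.9% of all tested genes, and 28.4% of all tested genes passed downward. Of the 9 genes of C/D assembly, 7 fell, the largest being C12orf45 at −0.72 and NUFIP1 at −0.49. The helicase genes RUVBL1 and RUVBL2 were at −0.35 and −0.19.

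Genes of later steps were mixed. Of 2 H/ACA assembly genes, SHQ1, a chaperone of dyskerin, rose (7.41 and 7.01 against 8.42 and 8.37 FPKM, 0.19) and NAF1 was at 0.0072 without passing. PHAX, an adaptor of small RNA export that also carries U3 to Cajal bodies, rose most, from 10.9 and 11.1 to 16.3 and 16.9 FPKM (0.56, SE 0.0339). WRAP53, which targets RNAs to Cajal bodies, rose (0.16), while NOLC1 at −0.28 and the Cajal body gene COIL at −0.11 fell. Of 6 processing genes, the exonuclease gene XRN2 (0.26) and LARP7 (0.26) rose and the poly(A) ribonuclease gene PARN (−0.12) fell, and DBR1, EXOSC10 and TOE1 did not pass. Over all 30 genes of these lists 5 rose and 18 fell (76.7%, against 59.1% of all tested genes), with a median of −0.14. The margin over all genes varied: under quantile normalization 18 of the 30 passed (60%, against 56.9%), and with a mean FPKM of at least 5 23 of 29 did (79.3%, against 67.7%). These 30 genes had mean levels from 4.11 to 236 FPKM.

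**Figure D5:**
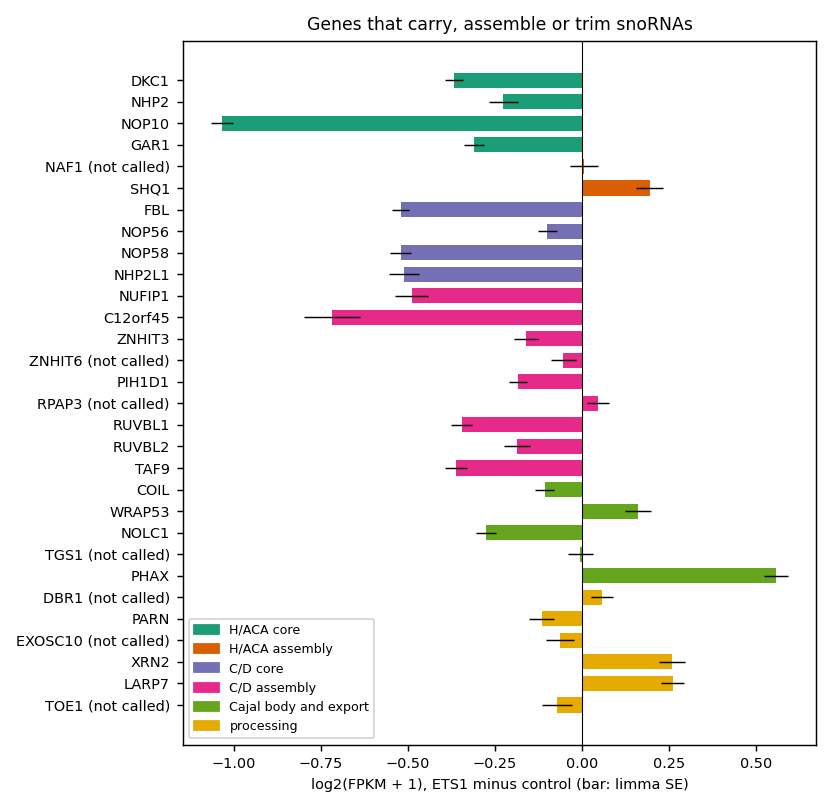
Difference in log2(FPKM + 1), ETS1 minus control, of 30 genes that carry, assemble, transport or trim snoRNAs, coloured by role; horizontal lines are the limma SE. All 8 core genes lie left of zero, NOP10 farthest at −1.03, and PHAX lies farthest right at 0.56.

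Other small nuclear RNAs were read by count only. Of 23 SCARNA names, guide RNAs of Cajal bodies, 5 were tested and 0 passed with limma, 1 at an unadjusted p under 0.05, 1 with voom and 0 in the authors' deposited table, with a median difference of 0.0074. Of the 57 tested RNU names, spliceosomal small nuclear RNAs and their copies, 4 rose and 11 fell (26.3%, against 59.1% of all tested genes and 32.4% of those with under 200 reads), with a median of −0.13.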

How the data were processed

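Bulk RNA-seq of 2 control and 2 ETS1 libraries of TE5 cells was analysed from 2 deposited tables, with groups taken from the labels. HISAT2, HTSeq, DESeq2 and the build hg38/GRCh38 are the authors' tools per the submitters' processing notes, without versions or order. Library preparation beyond a total RNA column extraction, strand use and annotation are not given in the sources used here. The authors deposited FPKM per gene name for every library. Their comparison table, per the file headers, gives a mean normalized count per gene (a signal, the mean of both groups' libraries), a log2 fold change with its error, which looks shrunken, and a p-value and adjusted p-value by the authors, missing for 969 of 16652 genes and for 32 of the 52 snoRNAs.

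limma 3.58.1 in R 4.3.3 was fitted on log2(FPKM + 1) over the 14306 genes whose mean FPKM reached 1, with a group term, a trend on the prior variance (2 residual and 2.84 prior degrees of freedom), two-sided tests and Benjamini-Hochberg adjustment over all genes. Differences on this scale understate the change of low genes. An exact permutation test of 2 against 2 libraries cannot go below p = 0.333, so single p-values rest on the shared variance model.

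Reads per gene were recovered as FPKM times gene length times library depth. This gave whole numbers within 0.001 for 99.4% of the genes in the authors' comparison table, all within 0.1% of the authors' mean normalized count. For most snoRNAs the length was the annotated length minus 1. Library totals were 40505238 to 57505840 reads, with a median of 72.1 reads per snoRNA over the 4 libraries together, and intervals from counts cover counting error only. voom from limma was run on these reads.

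Positions, hosts and sequences came from GENCODE 29 on GRCh38, by name for 43 snoRNAs, through RefSeq symbols for 3 and RefSeq synonyms for 3. An item that is not reported here was left out of the host comparisons. Identities are from global alignments with Biopython 1.88. The members and lists were chosen with earlier results of these data known. Named snoRNAs were, in each class, the 6 higher and the 6 lower with the largest differences among those that passed, the 5 most abundant, the detected snoRNAs of precursor cleavage and folding, and those nearest the detection limit; others are marked as named after their values were seen or stand with the members of their host. Alternatives were a pseudocount of 0.1, no filter, a filter at a mean FPKM of 5, trimmed-mean (TMM) scaling, quantile normalization, other priors, voom, the authors' table, a replicate block, each library left out, a threshold of 0.01 and a detection limit of 10 FPKM. The main limma step alone was tested on simulated reads, with changed genes drawn from those with more reads than most snoRNAs. That test does not cover the other fits or genes with as few reads as most snoRNAs.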

Additional observations from a re-analysis of the deposited data

How the results depend on the processing

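The number of snoRNAs that passed, 15, was 5 with no filter, 5 of 17 with a mean FPKM of at least 5, 8 with the prior following the read number, 8 with voom, 4 in the authors' deposited table, 5 at an adjusted p under 0.01, 4 of 8 among snoRNAs with a mean of at least 10 FPKM, and 12 to 21 with 1 library left out. In the same order, the 6 H/ACA snoRNAs became 2, 2, 3, 2, 1, 2 and 1, and 5 to 10 with 1 library left out, and the 9 C/D snoRNAs became 3, 3, 5, 6, 3, 3 and 3, and 7 to 13. Without ETS1 library 1 the split of the 16 snoRNAs that passed was 6 higher and 10 lower, and without control library 1 that of 21 was 13 and 8. Of all tested genes 59.1% passed in the main fit, 19.6% with no filter and 67.7% with a mean FPKM of at least 5. The share was 62.9% with the prior following the read number, 63.6% with voom and 54.2% in the authors' deposited table. With any 1 library left out the share of all genes was lower than in the main fit. The filter of 5 FPKM left 5562 of all genes passing in place of 8451, with fewer genes tested. Trimmed-mean scaling turned the split of all genes from 4394 higher and 4057 lower to 4051 and 4333, and moved the median difference of all genes by −0.018. The H/ACA minus C/D median ranged from −0.12 to 0.10 with 1 library left out. Of the snoRNAs that passed, 4 passed under every alternative that gave them a value (SNORA71A, SNORA76, SNORD3D and SNORD104). Over 27 named snoRNAs and their alternatives, 347 comparisons in all, 275 kept direction and side of the threshold, 51 lost the call, 12 gained one and 9 changed sign. The sign changed for SNORD100 without control library 1 (0.0097), SNORD83A without control library 2 (0.026), SNORD3A without control library 1 (0.019) and ETS1 library 2 (0.080), SNORA11 under quantile normalization (−0.011), SNORD1B without control library 2 (−0.0082) and ETS1 library 2 (−0.18), and SNORD73 without control library 1 (−0.25) and ETS1 library 2 (−0.11). With each library left out in turn, these ranged from −0.44 to 0.0097 for SNORD100, −0.36 to 0.026 for SNORD83A, −0.095 to 0.080 for SNORD3A, −0.18 to 0.66 for SNORD1B and −0.25 to 0.69 for SNORD73. None passed with all 4 libraries, and the cause was not tested. With the replicate number as a block, 18 snoRNAs passed, 9 higher and 9 lower, and 7283 of all genes. The numbers share no stated culture or day, and the deviations of same-numbered libraries correlated at −0.0456, so they were not treated as pairs. A library left out leaves 1 sample in a group, which is assumed to vary like the other group. At a median of 72.1 reads per snoRNA over the 4 libraries together, the depth limits most of the differences given.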
